A study of Mus musculus with 24 samples.

Results

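Levels of miR-10a (mmu-miR-10a), miR-10b (mmu-miR-10b), miR-196a (mmu-miR-196a) and miR-196b (mmu-miR-196b), mouse miRNAs of the miR-10 and miR-196 families encoded within the Hox gene clusters, were examined across mammary and lung tissue, tumors, metastases and cell cultures. Their probes are 4 of the 566 mouse miRNA probes of the nCounter assay, taken by name, and all 4 were measured in all 24 lanes. The question was how these marks of body position differ between the normal mammary gland (NMG) and normal lung, and which pattern tumor cells of mammary origin carried in the gland and in the lung. JygMC(A)-GFP/Luc is a mouse mammary carcinoma line that carries a lentiviral fusion of luciferase and eGFP. It was injected into the fourth mammary fat pad of female Balb/C nude mice, which lack a thymus, and primary tumors (PT) were removed before the lung metastases were collected. The tissue samples were laser-captured areas of carcinoma (n = 5) and EMT-like histology (n = 7) from PT, lung metastases (n = 4), NMG (n = 2) and normal lung parenchyma (n = 2). The labels name no treatment for any group, and all tumor samples derive from 1 cell line. Replicate 1 of carcinoma, of EMT-like areas and of lung metastasis each carries a label naming the same 3 animals and was treated as 1 sample, several other PT and metastasis samples share an animal, and both normal tissues came from the same 2 Balb/C nude animals. The same cells were also profiled in vitro without a host as a monolayer (n = 2) and as third-generation 3D-spheres (n = 2).

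miRNAs are short RNAs that guide repression of messenger RNAs, mainly by pairing of their seed, bases 2 to 8 from the 5′ end, with the target. Hox genes encode transcription factors that pattern the body axis, and they lie in clusters in which the order of the genes follows the order of the body regions where they act. The miR-10 genes sit beside the Hox4 genes and the miR-196 genes near the Hox9 and Hox10 genes, and both families are known to repress Hox messenger RNAs. Adult tissues often keep a Hox pattern of the body region in which they formed.

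The mature sequences are shown because each family consists of a pair of near-identical miRNAs that behaved differently across these samples. They are those of RefSeq (build GRCm38.p6), where all 4 members were found, and capitals mark the seed.
miR-10a: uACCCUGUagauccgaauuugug
miR-10b: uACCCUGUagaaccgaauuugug
miR-196a: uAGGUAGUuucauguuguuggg
miR-196b: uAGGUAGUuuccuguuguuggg
miR-10a and miR-10b share their seed and differ by 1 base, U12A, and miR-196a and miR-196b share theirs and differ by 1 base, A12C (miR-10a or miR-196a first, position counted from the 5′ end). On GRCm38.p6, mature miR-10a lies at chr11:96317186-96317208 (plus strand), within the span of Hoxb3 and next to Hoxb4. Mature miR-10b lies at chr2:74726074-74726096 (plus strand), within the spans of Hoxd3 and Hoxd4. Mature miR-196a has 2 genes, at chr11:96265187-96265208 (plus strand, between Hoxb13 and Hoxb9) and at chr15:102973365-102973386 (plus strand, between Hoxc10 and Hoxc9), and 1 probe value covers both. Mature miR-196b lies at chr6:52230129-52230150 (minus strand), between Hoxa9 and Hoxa10. How far each probe also binds the other member of its pair was not tested.

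Each deposited value is a barcode count minus the average of the 6 negative control probes in its lane. The sum of mouse miRNA values was 24418 to 44953 in the cultures, 61497 to 183539 in PT and metastases, and 525225 to 2334960 in the normal tissues, with the highest sum in normal lung replicate 2. A value was taken as detected when it exceeded 2 SD of the negative controls of its lane, a limit of 4 to 21.4 counts. Normalized values are those scaled with the trimmed mean of M-values (TMM), and the differences were tested with limma on log2(normalized value + 1) over 583 probes, called at an adjusted p under 0.05. Other scalings moved the median log2 difference over all probes, relative to TMM, by between -2.07 and 1.40, the extremes both being for lung metastasis against normal lung, so differences between normal tissue, tumor and culture are relative to TMM. Between lung metastasis and PT the same shift was only -0.36 to 0.02. Beside the labels, both endothelial markers (miR-126-3p and miR-126-5p) were detected in every tissue sample and in no culture. The epithelial markers (the miR-200 family, miR-203 and miR-205) were detected with all 7 probes in every NMG and normal lung sample, and 5 of the 7 were detected in no culture. The summed normalized value of these markers was 930 to 5385 in carcinoma and 59.4 to 1758 in EMT-like areas, whose median of 396 was below every carcinoma sample.

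In NMG all 4 members were detected well above the limit. The normalized value of miR-10a was 333 and 217 in the 2 NMG samples, that of miR-10b was 437 and 330.4, that of miR-196a was 363 and 283, and that of miR-196b was 206.04 and 169.66. NMG held the highest mean level of miR-10b, miR-196a and miR-196b of all 7 groups. For miR-10a the mean of NMG was second to that of normal lung.

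miR-10a was highest in normal lung, where the 2 samples had normalized values of 678 and 704. The 5 carcinoma values were 41.0, 53.2, 24.9, 38.7 and 40.9. The 7 EMT-like samples ran from 45.9 to 76.1 with a median of 49.9. The order of the means was normal lung, NMG, lung metastasis, EMT-like and carcinoma, and the ranges of the last 3 groups overlapped. The 4 metastases were at 102.7, 70.6, 20.5 and 67.0, of which the third was not above its limit. In the 4 cultures the deposited values of miR-10a were between -10 and 0, under the limit in each.

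miR-10b, by contrast, was lowest among the tissues in metastases and normal lung. Its normalized values in the 2 normal lung samples were 17.96 and 25.02. In the 4 metastases they were 0, 22.9, 5.13 and 21.8, and only replicate 4 was above its limit. The 5 carcinoma samples were at 47.7, 43.7, 60.3, 78.7 and 109.0, and the 7 EMT-like samples ran from 51.6 to 152 with a median of 116. All 12 PT samples therefore lay above all metastases and above both normal lung samples. Among the means, EMT-like followed NMG, then carcinoma, with overlapping ranges. It was the only member above the limit in any culture: the monolayers had normalized values of 101 (detected) and 12.2 (not detected), and the spheres 41.8 and 32.2 (both detected).

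miR-196a followed the order NMG, normal lung, EMT-like, carcinoma and lung metastasis. Its normalized values were 71.9 and 92.5 in normal lung, above all PT samples. The 7 EMT-like samples ran from 18.2 to 56.1 with a median of 29.4. In carcinoma they were 23.3, 21.3, 13.4, 56.2 and 6.81, with replicates 3 and 5 under the limit, and the ranges of both PT areas overlapped. In the 4 metastases the deposited values were 0, 2, -2 and 2, and in the 4 cultures they were between -10 and -5, so that no metastasis and no culture had detectable miR-196a.

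miR-196b had wide ranges within the tumor groups. Its normalized values in carcinoma were 94.3, 89.8, 69.9, 18.7 and 72.2, with replicate 4 under the limit. The EMT-like samples ran from 16.2 to 86.1 with a median of 30.1. The metastases were at 65.8, 28.6, 33.4 and 115, of which replicate 2 was not above its limit. The 2 normal lung samples, at 20.4 and 35.3, lay within the range of the EMT-like samples, and the ranges of carcinoma, metastasis, EMT-like and normal lung all overlapped. The deposited values of the 4 cultures were between -5 and 1, none of them detected.

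**Figure D1:**
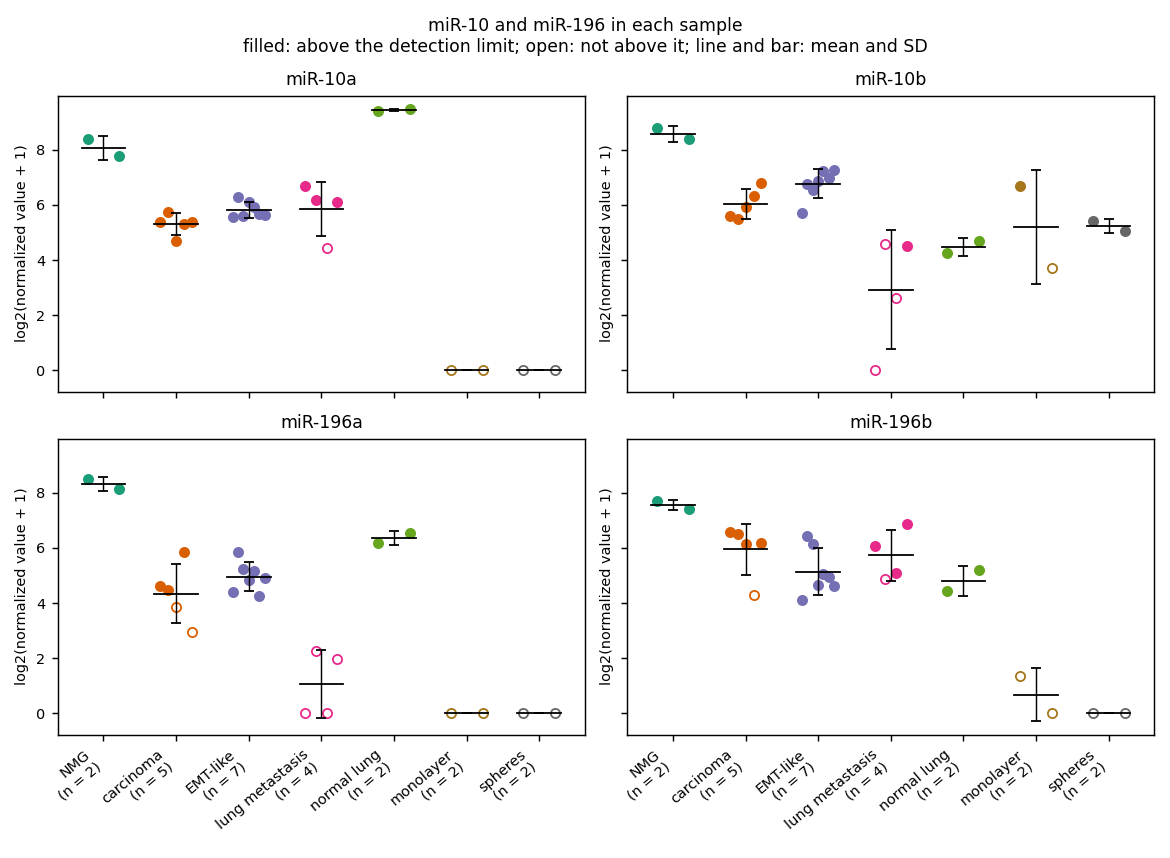
Level of each member in each of the 24 samples, as log2(normalized value + 1) on the vertical axis, by group on the horizontal axis. Filled points were above the detection limit and open points were not, and the line and bar give the mean and SD. In lung metastasis the plotted values of miR-10b and miR-196a lie below all 12 PT samples, whereas miR-10a and miR-196b in metastasis overlap PT. For miR-196a all 4 metastases and carcinoma replicates 3 and 5 are under their limits. The limits of metastasis replicates 2 and 3 exceed the values of several PT samples, so these points do not fix the order of single samples for miR-196a.

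The 2 normal tissues differed in the means of all 4 members, but not all differences passed the test. With limma, 2 of the 4 members were called lower in normal lung than in NMG (miR-10b and miR-196b), where 1.2% of all 583 probes were called lower and 10.1% higher. miR-10b was 17.2-fold lower in normal lung (log2 difference -4.10, standard error [SE] 1.04, limma adjusted p = 0.00977). miR-196b was 6.74-fold lower (log2 difference -2.75, SE 0.80, limma adjusted p = 0.0254). miR-196a had a log2 difference of -1.96 (SE 0.82, limma adjusted p = 0.116). miR-10a was on the other side, with a log2 difference of 1.36 (SE 0.52, limma adjusted p = 0.0881). In both animals the sign was that of the group comparison for every member, for example -4.53 and -3.67 for miR-10b. The median log2 difference was -2.36 over the members and 0.33 over all probes. The endothelial markers summed to 67772 to 70140.5 in normal lung and 10971 to 17649 in NMG, and the blood cell markers to 53788 to 62108 and 11009 to 13731.5, and their part in the differences was not tested. In a bulk sample, fewer cells of a type and less RNA per cell cannot be told apart. With 2 samples a group the calls depended on single lanes: that of miR-10b was lost without NMG replicate 1 (limma adjusted p = 0.0939) or normal lung replicate 1 (0.0559), and that of miR-196b without any 1 of the 4 lanes (0.0524 to 0.169), with a fixed block for the animal (0.0757), when the mRNA controls set the scale (0.231) and with a background raised by 2 SD of the negative controls, the higher background (0.233). With a pseudocount of 10 all 4 members were called.

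In both PT areas the mean of each member was lower than in NMG. Carcinoma and EMT-like areas were each compared with the same 2 NMG samples, so these comparisons are not independent and their values are given side by side. In carcinoma 3 of the 4 members were called lower, where 23.8% of all probes were called lower, and in EMT-like areas 3 of 4, where 20.2% were. miR-196a had the largest fold of the members, 15.8-fold lower in carcinoma (log2 difference -3.98, SE 0.68, limma adjusted p = 0.000115) and 10.4-fold lower in EMT-like areas (-3.38, SE 0.65, limma adjusted p = 0.000434). In carcinoma, where replicates 3 and 5 were under the limit, its size depends on the treatment of low values. Over the alternatives the log2 difference there ran from -5.90 to -3.04. miR-10a was 6.80-fold lower in carcinoma (limma adjusted p = 4.83e-05) and 4.77-fold lower in EMT-like areas (limma adjusted p = 0.000286). miR-10b was called in carcinoma, at 5.86-fold lower (limma adjusted p = 0.0303), and in EMT-like areas had a log2 difference of -1.81 (SE 0.83, limma adjusted p = 0.119). miR-196b was called in EMT-like areas, at 5.33-fold lower (limma adjusted p = 0.00729), and in carcinoma had a log2 difference of -1.61 (SE 0.67, limma adjusted p = 0.0778). The difference between the PT areas was not called for any member. The median log2 difference was -2.66 over the members and -0.68 over all probes in carcinoma, and -2.33 against -0.30 in EMT-like areas.

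The calls of miR-196a in both areas and of miR-10a in carcinoma held under all alternatives fitted, which did not include a fixed block for the animal. The direction of no member turned under any scaling. miR-10b in EMT-like areas gained a call under 4 of 18 alternatives (limma adjusted p 0.00503 to 0.0116, the lowest with no scaling), and miR-196b in carcinoma under 3 of 16 (0.0014 to 0.0415, the lowest with no scaling). The call of miR-10b in carcinoma was lost with scaling by the 100 most abundant miRNAs (limma adjusted p = 0.198) or by the miRNA total (0.0776), with the higher background (0.102), and without carcinoma replicate 1 (0.0547), carcinoma replicate 2 (0.0528), NMG replicate 1 (0.197) or NMG replicate 2 (0.125). In EMT-like areas, scaling by the 100 most abundant miRNAs left miR-10a at a limma adjusted p of 0.0531 and miR-196b at 0.193, the higher background left them at 0.167 and 0.202, and miR-196b was also lost without NMG replicate 1 (0.0903) or NMG replicate 2 (0.0537). Markers of other cell types moved with the members. The summed normalized value of the 2 endothelial markers was 10971 and 17649 in NMG against 1067 to 2626 in PT, and that of the 5 markers of smooth muscle and fibroblasts was 15164 and 16236 against 1646 to 4173. The part of these cells in the differences was not tested.

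Between carcinoma and EMT-like areas no member was called by limma, where 0.172% of all probes were (1 of 583, with 81 at an unadjusted p under 0.05). The log2 difference of carcinoma over EMT-like was -0.51 (SE 0.31) for miR-10a, -0.74 (0.61) for miR-10b, -0.60 (0.48) for miR-196a and 0.80 (0.47) for miR-196b. The median was -0.56 over the members and -0.16 over all probes. In the 4 pairs of areas from the same animal or pool, miR-10a and miR-10b were lower in carcinoma in 4 of 4. miR-196a was lower in 2 of 4 and miR-196b in 1 of 4.

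**Figure D2:**
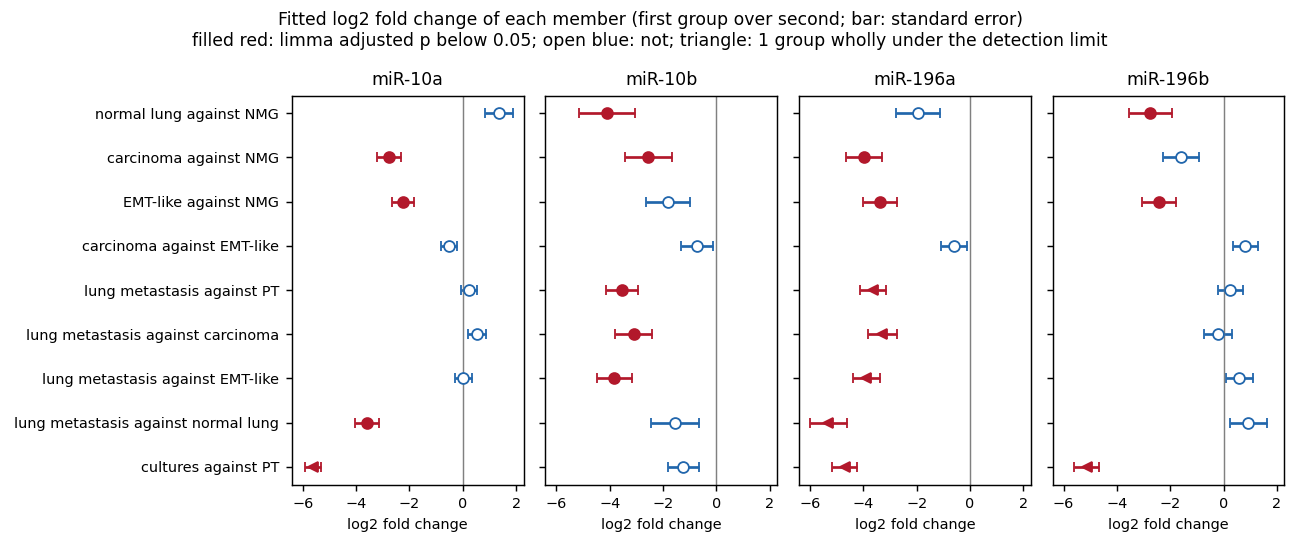
Fitted log2 fold change, the log2 difference of the text, of each member (horizontal axis, first group over second) with its SE, for 9 comparisons. Filled red marks have a limma adjusted p under 0.05, open blue marks do not, and triangles mark comparisons in which 1 group was wholly under the detection limit, where the fitted size depends on the pseudocount. miR-10b and miR-196a are called lower in lung metastasis against PT, carcinoma and EMT-like, whereas miR-10a and miR-196b are not called in these comparisons.

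Lung metastases differed from PT in 1 member of each pair. miR-10b and miR-196a were called lower, 2 of the 4 members, where 2.57% of all probes were called lower and 0.515% higher. miR-10b had a log2 difference of -3.53 (SE 0.60, limma adjusted p = 0.00108), with 3 of 4 metastases not above the limit. Its size thus depends on the treatment of low values, and was -2.29 with a pseudocount of 10 and -5.24 with the higher background. miR-196a was under the limit in all 4 metastases and above it in 10 of 12 PT samples (limma adjusted p = 5.13e-05). It was 1.70-fold lower with the metastases set at their limits. Under-limit PT values were kept as measured there, so this is not a strict bound. The other member of each pair did not pass: the log2 difference was 0.23 (SE 0.30, limma adjusted p = 0.895) for miR-10a and 0.25 (SE 0.46, limma adjusted p = 0.973) for miR-196b. The median was -1.65 over the members and 0 over all probes. The signs of miR-10a and miR-196b turned with no scaling, to -0.32 and -0.29, so no direction is given for them. The calls of miR-10b and miR-196a held under all 29 alternatives, with a limma adjusted p of at most 0.00749 for miR-10b and 0.0181 for miR-196a. The 29 include 2 fits within a label series, described below and chosen after the data were seen. Of these, the lettered series is too small to lend support.

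The same pair was called lower against each PT area taken alone, in comparisons that share the metastases. Against EMT-like areas, where 4.97% of probes were called lower, miR-10b had a log2 difference of -3.83 (SE 0.65, limma adjusted p = 0.000851), or -2.56 with a pseudocount of 10, and miR-196a was at least 2.03-fold lower (limma adjusted p = 0.000103). Against carcinoma, where 0.858% were, miR-10b had a log2 difference of -3.10 (SE 0.70, limma adjusted p = 0.0181), or -1.90 with a pseudocount of 10. miR-196a was detected in 3 of 5 carcinoma samples and called lower in metastases (limma adjusted p = 0.00166). It was 1.33-fold lower with the metastases set at their limits. Under-limit carcinoma values were kept as measured there, so this is not a strict bound. The median over the members was -1.91 against EMT-like areas (-0.06 over all probes) and -1.66 against carcinoma (0 over all probes). The calls against carcinoma were lost with the animal as a fixed block (limma adjusted p = 0.0735 for miR-10b and 0.151 for miR-196a) with only those 2 groups in the fit (0.154 for both) and within the numbered labels described below (0.0635 for both), and that of miR-196a with the higher background (0.581). That of miR-10b was also lost without lung metastasis replicate 1 (0.0541), lung metastasis replicate 3 (0.0646), carcinoma replicate 4 (0.0506) or carcinoma replicate 5 (0.0620).

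The EMT-like area and the lung metastasis came from the same animal or pool in 4 cases. In all 4 the value of the metastasis was lower for miR-10b and for miR-196a. For miR-10b the normalized value went from 51.6 to 0 in the pool of 3 animals, and from 116 to 22.9, from 125 to 5.13 and from 152 to 21.8 in the 3 single animals. For miR-196a it went from 20.1 to 0, from 27.9 to 3.82, from 18.2 to 0 and from 29.4 to 2.91. Each of these values was thus below that of the EMT-like area of its own animal or pool. No metastasis was above its limit for miR-196a. Where the EMT-like area had 27.9 and 18.2, the limit of the metastasis was higher than that, so the order of miR-196a is not fixed there. For miR-196b and miR-10a the sign within animals depended on the scaling. After TMM, miR-196b was higher in the metastasis in 4 of 4, by 0.15 to 2.25 on the log2 scale, but its deposited values were lower there in 2 of 4, at 15 against 25 and 26 against 38. miR-10a was higher in 3 of 4 after TMM and in 1 of 4 by deposited values.

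Animals carry either lettered or plain numbered labels, which hold samples of all 3 tumor groups, and the differences were also examined within the series, a choice made after the data were seen. In the numbered series (3 metastases) the log2 difference of miR-10b against PT was -2.95 (limma adjusted p = 0.00171), and miR-196a, under the limit in these metastases, was called lower too (limma adjusted p = 0.00171). The lettered series holds 1 metastasis, the pool, in which neither member was detected, and is too small for a value. Markers of smooth muscle and fibroblasts had a summed normalized value of 918 to 2082 in metastases, 1646 to 2959 in carcinoma and 1859 to 4173 in EMT-like areas, and blood cell markers 756 to 1311, 373 to 1037 and 386 to 778. Each of these ranges overlaps, but miR-199a-5p of the smooth muscle and fibroblast list was itself called lower in metastases than in PT (2.62-fold, limma adjusted p = 0.00537). The epithelial markers, at 2509 to 4671 in metastases, did not overlap the 59.4 to 1758 of EMT-like areas. The part of these cells in the result was not tested.

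**Figure D3:**
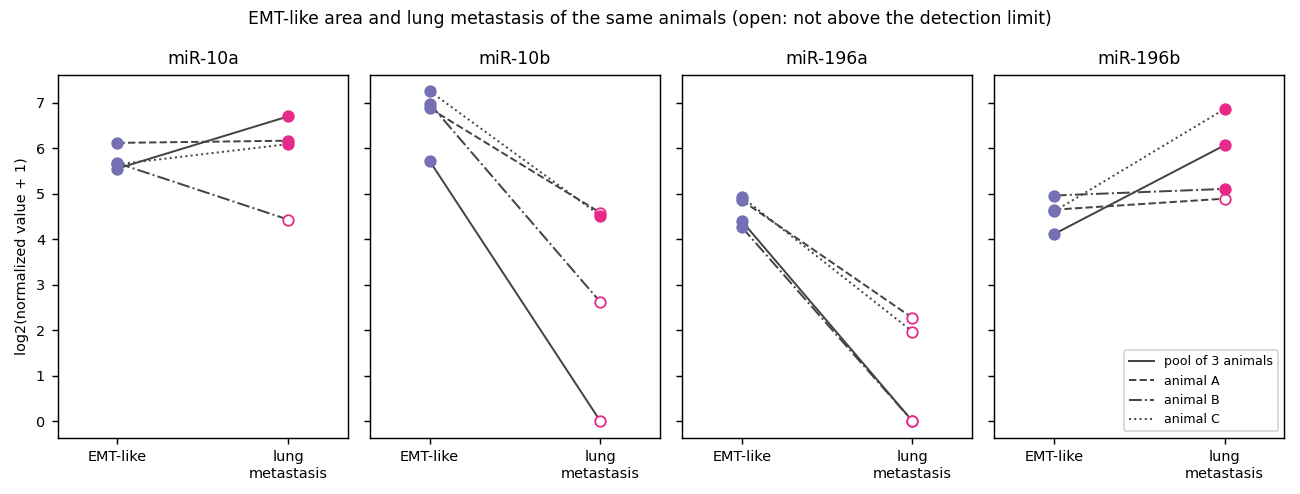
Level of each member in the EMT-like area and the lung metastasis of the same animal or pool, as log2(normalized value + 1), joined by a line. Open points were not above the detection limit. miR-10b and miR-196a are lower in the metastasis in 4 of 4 lines, and miR-196b is higher in 4 of 4 and miR-10a in 3 of 4 on this scale but in 2 and 1 of 4 by deposited values.

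Lung metastases were next set against normal lung parenchyma. miR-10a and miR-196a were called lower in metastases, 2 of the 4 members, where 42.2% of all probes were called lower, so the share is near that of all probes. miR-10a was 12.1-fold lower (log2 difference -3.59, SE 0.45, limma adjusted p = 1.2e-06), and each of the 4 metastases lay far below both normal lung samples. Over the alternatives its log2 difference ran from -6.05 to -1.79. miR-196a was at least 5.41-fold lower (limma adjusted p = 2.54e-06). Both calls held under all 15 alternatives, which did not include a fixed block for the animal. The median was -2.57 over the members and -0.90 over all probes. Markers of other cells moved with them: the summed normalized value of the endothelial markers was 819 to 3114 in metastases and 67772 to 70140.5 in normal lung, that of the blood cell markers 756 to 1311 and 53788 to 62108, and that of the smooth muscle and fibroblast markers 918 to 2082 and 14549 to 18412. Their part in the differences was not tested. miR-10b had a log2 difference of -1.55 (SE 0.90, limma adjusted p = 0.167), with overlapping samples, and was called lower on unscaled values and with the mRNA controls as the scale but turned to 0.17 with scaling by the 100 most abundant miRNAs. miR-196b had a log2 difference of 0.92 (SE 0.69, limma adjusted p = 0.294), called higher when the 100 most abundant miRNAs (2.59) or the miRNA total (2.32) set the scale, and of the opposite sign on unscaled values (-1.17) and when the mRNA controls set the scale (-1.45).

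The difference between lung and mammary site was then compared between tumor and normal tissue, as the log2 difference of metastasis over PT minus that of normal lung over NMG. miR-196b differed: it was 0.25 in tumors and -2.75 in normal tissue, a difference of 3.00 (SE 0.92, limma adjusted p = 0.0363), where 0.686% of all probes were called in this direction and 10.8% in the other. miR-10b was called lower in both settings, at -3.53 and -4.10, and their difference of 0.58 was small beside its SE of 1.20 (limma adjusted p = 0.856). For miR-196a, undetected in the metastases, the difference was not called (limma adjusted p = 0.288) and has no size, since its sign turned with a pseudocount of 10. miR-10a had 0.23 and 1.36 (difference -1.12, SE 0.60, limma adjusted p = 0.264). With scaling by the mRNA controls miR-10a (-2.55, limma adjusted p = 0.0363) and miR-196a (limma adjusted p = 0.0487) were called. A p that misses the threshold does not show that the site differences were alike. The call of miR-196b was lost with a fixed block for the animal (limma adjusted p = 0.102), no scaling (0.138), scaling by the mRNA controls (0.293) and the higher background (0.438), and without any 1 of the normal lung or NMG samples, lung metastasis replicate 1 or 4, or EMT-like replicate 4 or 6 (0.0522 to 0.161).

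The ratio of the members of a pair within a lane does not depend on the scaling between lanes. It was computed from the deposited values after the data were seen and is given as a description, and since probes may differ in yield only its change between groups can be read. The ratio of miR-10a to miR-10b was 0.762 and 0.657 in NMG and ran from 0.323 to 1.22 (median 0.503) in the 12 PT samples. It was 37.8 and 28.1 in normal lung. In metastases it was 3.07 in replicate 4 and, with miR-10b set at its limit, at least 19.5 in replicate 1 and at least 2.02 in replicate 2, whereas in replicate 3 neither miRNA was detected. The ratio in these 3 metastases was thus above that of every PT and NMG sample, and the measured one in replicate 4 was below both normal lung samples. In monolayer replicate 1, where miR-10b was detected, the ratio was at most 0.329, and in the spheres it was at most 0.813 and 0.839.

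The ratio of miR-196a to miR-196b separated the groups differently. It was 1.76 and 1.67 in NMG and 3.52 and 2.62 in normal lung, so that both normal tissues lay above all 7 EMT-like samples (0.525 to 1.26). In carcinoma it was 0.247 and 0.237 in replicates 1 and 2, at most 0.280 and 0.165 in replicates 3 and 5, and at least 2.28 in replicate 4. In metastases replicates 1, 3 and 4 had at most 0.08, 0.652 and 0.0832, and neither miRNA was detected in replicate 2. The bounds of metastasis replicates 1 and 4 lay below every PT value that was measured. Carcinoma replicate 4 stood apart from the other carcinoma areas in both members, with the highest miR-196a and the lowest miR-196b of its group.

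**Figure D4:**
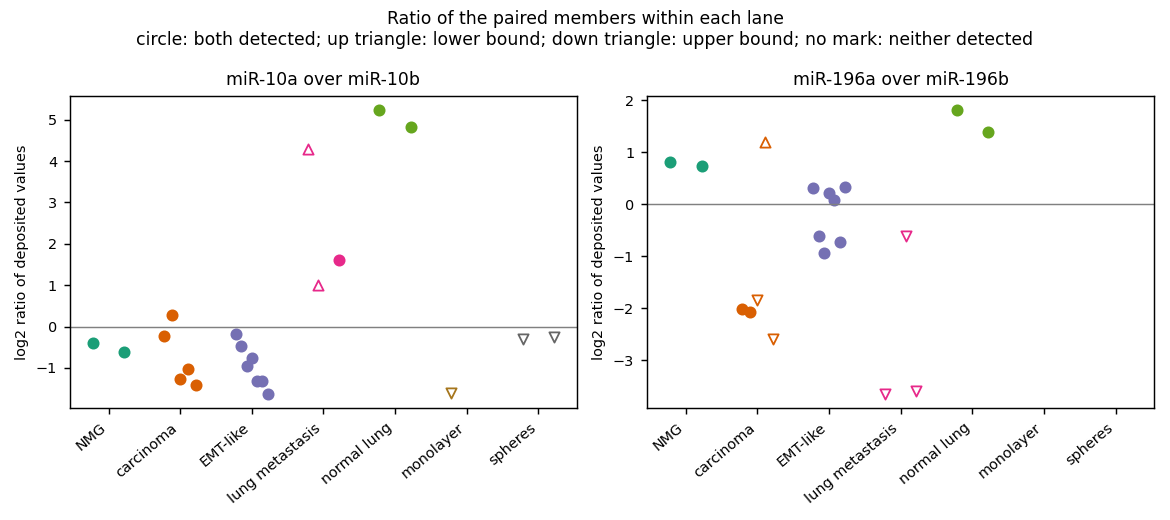
log2 ratio of the deposited values of miR-10a over miR-10b and of miR-196a over miR-196b in each lane (vertical axis), by group. Circles are lanes with both members detected, upward triangles lower bounds and downward triangles upper bounds. For miR-10 the 3 metastases with a value lie above every PT and NMG lane, and for miR-196 their upper bounds lie below both normal tissues.

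In the cultures miR-10b was the only detected member. Against PT, miR-10a, miR-196a and miR-196b were called lower, 3 of the 4 members, where 22% of all probes were called lower. miR-10a was at least 1.48-fold lower (limma adjusted p = 8.87e-13). miR-196b (limma adjusted p = 8.12e-09) was 1.348-fold lower with the cultures set at their limits. Its value in carcinoma replicate 4, under the limit, was kept as measured there, so this is not a strict bound. For miR-196a (limma adjusted p = 4.41e-08) the limits in the culture lanes were too high for a fold to be given. Its call rests on culture values set to 0, and its mean in PT, 28.6, lay within the range of the culture limits. The limits of the cultures on the normalized scale, 27.0 to 34.4, were above those of the PT lanes, 9.57 to 24.6, so low levels in the cultures were not detectable at this depth. The median fitted log2 difference was -4.92 over the members, a size that depends on the pseudocount, and -0.08 over all probes. miR-10b in the cultures, with a mean normalized value of 46.8 ± 38.1 (SD, n = 4) against 94.1 ± 38.0 (SD, n = 12) in PT, had a log2 difference of -1.23 (SE 0.60, limma adjusted p = 0.136). It was called lower under 6 of 25 alternatives, among them without monolayer replicate 1 (limma adjusted p = 0.0401), and turned to 1.09 with scaling by the 100 most abundant miRNAs. Between spheres and the monolayer no member was called by limma, where 4.63% of all probes were (84 had an unadjusted p under 0.05), and miR-10b had a log2 difference of 0.04 (SE 1.04). Without monolayer replicate 2 that value was -1.43, and without monolayer replicate 1 it was 1.51, so the 2 cultures of a kind did not fix its direction.

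Other miRNAs close to the members in position or sequence were described for comparison. miR-615, encoded within Hoxc5, was detected by neither of its 2 probes in any of the 24 lanes, and no probe for a star strand of a member was present. miR-99a, miR-99b and miR-100 are related to miR-10 by sequence, with a seed that begins with the same ACCC and then lacks a U.
miR-10a: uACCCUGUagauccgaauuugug
miR-99a: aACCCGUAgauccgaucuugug
miR-100: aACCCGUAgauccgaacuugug
None of these 3 was called between metastasis and PT, where miR-99a had a log2 difference of -0.29 (SE 0.29, limma adjusted p = 0.768) and miR-100 of -1.18 (SE 0.61, limma adjusted p = 0.379). Of all probes, 2.57% were called lower there and 0.515% higher. Against NMG, 1 of 3, miR-99a, was called lower in each PT area, with a log2 difference of -1.82 (limma adjusted p = 0.00261) and -2.51 (limma adjusted p = 6.29e-05). In normal lung against NMG, where 10.1% of all probes were called higher, 1 of 3 was called, miR-99b, higher by 1.61 on the log2 scale (limma adjusted p = 0.0036). All 3 were called lower in metastasis than in normal lung, where 42.2% of all probes were called lower. miR-100 was the 1 of 3 called lower in cultures than in PT, where 22% of all probes were called lower. Its log2 difference was -3.20 (limma adjusted p = 0.000258), and it was detected in 1 of 4 cultures. let-7a shares the bases of the miR-196 seed at a shifted position. Of the 9 members of the let-7 family with miR-98, none was called between metastasis and PT (median log2 difference -0.06) or between normal lung and NMG (0.53). In cultures 8 of 9 were called lower than in PT, beside 22% of all probes, with a median log2 difference of -1.12.

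Likeness over samples was measured by Pearson's r of log2(normalized value + 1) over the 24 samples among 268 other mouse miRNAs detected in at least 6 samples, as a description. These points share the scaling and fall into clusters by group, and undetected values at 0 in the cultures raise r. The 3 most like miR-10a were miR-126-5p (r = 0.99), miR-126-3p (0.98) and miR-342-3p (0.97), and miR-126 is known as an endothelial miRNA. Over the 20 tissue samples r of miR-10a with miR-126-3p was 0.96, and over the 16 tumor and metastasis samples it was 0.70. The mean normalized value of miR-126-3p was 62079.5 ± 665 in normal lung (SD, n = 2), 13018.5 ± 4436 in NMG (SD, n = 2), 2088 ± 914 (SD) in the 4 metastases, 2007 ± 402 (SD) in the 7 EMT-like samples and 1481 ± 278 (SD) in the 5 carcinoma samples, the same order as for miR-10a, and it was detected in no culture. The part of endothelial cells in the level of miR-10a was not tested.

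For miR-196a the 3 most like were miR-127 (r = 0.92), miR-329 (0.90) and miR-199a-5p (0.85). miR-127 was, as miR-196a, detected in no metastasis and no culture, and had a mean normalized value of 119 ± 33.8 in NMG (SD, n = 2) and 29.1 ± 1.75 in normal lung (SD, n = 2). For miR-196b they were miR-148a (0.93), miR-340-5p (0.92) and miR-19a (0.91). miR-10b had no close match: its highest values were 0.66 with miR-204, 0.64 with miR-196a and 0.62 with miR-127. Within the pairs, r was 0.11 between miR-10a and miR-10b and 0.64 between miR-196a and miR-196b. Ranked among the 268 by likeness to miR-10a, miR-10b stood at 157.

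**Figure D5:**
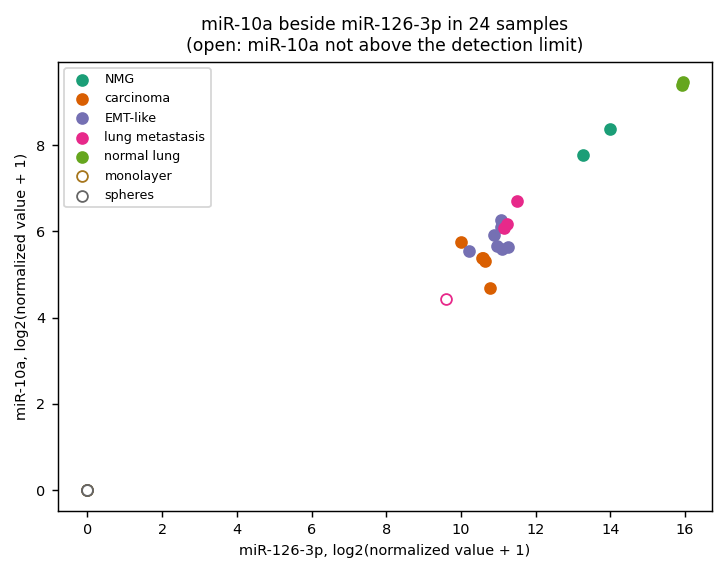
miR-10a (vertical axis) beside miR-126-3p (horizontal axis) in the 24 samples, both as log2(normalized value + 1), coloured by group. Open points had miR-10a not above the detection limit. The 4 cultures lie at 0 for both, and normal lung is highest in both.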

How the data were processed

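miRNA was measured with the NanoString nCounter mouse miRNA assay in 24 lanes, with 566 mouse and 33 viral miRNA probes. The deposited scores are whole numbers: in each lane the authors subtracted the mean of the 6 negative controls from the counts, so that values reach -20, and did not scale between lanes. Partek is named in the submitters' processing notes, and the software of the subtraction is not given in the sources used here. The design had foreseen counts, and since the scores are not counts they were tested on a log scale.

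Lanes were scaled by TMM (trims of 30% and 5%, reference carcinoma replicate 2), values under 0 were set to 0, and log2(normalized value + 1) of the 583 probes above 0 in any lane was fitted with limma 3.58.1 in R 4.3.3. All 7 groups entered 1 fit with the animal as a random block (estimated correlation -0.00296), and p-values were adjusted by Benjamini-Hochberg over 583 probes. PT stands for both areas, weighted by their numbers of samples. Figures used Python 3.11.15 with numpy 2.4.6, pandas 2.3.3 and matplotlib 3.10.9. The fit was checked on simulated data. The labels show which samples came from 1 animal or from the pool of 3. Over 10 such pairs, 3 of them of the pool, deviations from the group means correlated with a median r of 0.151 over 183 probes (-0.296 to 0.424).

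Named were the 4 members, their star strands, miR-615, miR-99a, miR-99b, miR-100, let-7 with miR-98, and for each member the 3 miRNAs of highest Pearson r. The members and lists were chosen with earlier results of these data known. Alternatives were 13 other settings and leaving out each of the 24 lanes. In a fit where the block correlation could not be estimated, no block was used. No 2 lanes of a group were near-identical (at most 9.01% identical values). Where the labels do not say that samples of a group came from separate animals or cultures, p-values measure the spread between these samples, which may be technical. Limits of detection cover counting background only.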

Additional observations from a re-analysis of the deposited data

Results flagged for a closer look

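miR-196b in carcinoma replicate 4 stood apart from the other 4 carcinoma samples, with a normalized value of 18.7 against 69.9 to 94.3, and on the log2(normalized value + 1) scale its gap to the nearest sample was 0.812 of the range of the group. Among 12 groups of members and samples examined in this way, chance alone sets apart about 1 in 20. The same sample had the highest miR-196a of the carcinoma samples, 56.2.

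miR-196b differed between normal and tumor tissue in its change from the mammary to the lung site, with a difference of 3.00 on the log2 scale (lung metastasis over PT, 0.25, minus normal lung over NMG, -2.75, limma adjusted p = 0.0363). The call was lost under 12 of 30 alternatives, among them no scaling, scaling by the mRNA controls and leaving out any 1 normal lane. The cause of the difference was not tested.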

How the results depend on the processing

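Of 886 member differences recomputed under other settings or without a lane, 778 kept their direction and side of the threshold, 45 lost the call, 24 gained it and 39 turned sign, and of 232 counts of members called, 27 fell and 2 rose beyond 1.5 times. The number of members called in normal lung against NMG (2) was 1 with the higher background, 1 with the fixed replicate block for animals and 4 with a pseudocount of 10. In EMT-like areas against NMG (3) it was 1 when the 100 most abundant miRNAs set the scale and 1 with the higher background. In lung metastasis against carcinoma (2) it was 1 with the higher background and 0 with only those groups in the fit, with the fixed replicate block and within the numbered labels. For the site difference (1) it was 0 with no scaling, the higher background and the fixed replicate block, and 2 with the mRNA controls. The fixed block was not fitted for either PT area against NMG, for lung metastasis against normal lung or for cultures against PT. Where it was fitted, it ended no other member's call.

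The turned signs were all of differences that were not called. Against PT, miR-10a in metastasis was -0.32 with no scaling, -0.66 with the higher background and -0.10 within the numbered labels, and miR-196b was -0.29 with no scaling and -0.57 with the higher background. Against carcinoma, miR-196b was 0.091 with the fixed block and 0.37 within the numbered labels. Against EMT-like areas, miR-10a was -0.69 with no scaling, -0.16 with the 100 most abundant, -0.027 with the total, -0.15 with the mRNA controls, -1.25 with the higher background and -0.23 within the numbered labels, and miR-196b was -0.11 with no scaling and -0.51 with the higher background. Against normal lung, miR-10b was 0.17 with the 100 most abundant, and miR-196b was -1.17 on unscaled values and -1.45 with the mRNA controls. For spheres against monolayer, miR-10b was -0.20 with no scaling, -0.028 with the 100 most abundant, -0.20 with the total and -0.087 with a pseudocount of 10. For cultures against PT it was 1.09 with the 100 most abundant. For the site difference, miR-10b was -0.067 with no scaling, -0.95 with the mRNA controls and -0.44 with the higher background, and miR-196a was 0.21 with a pseudocount of 10.

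Leaving out 1 lane at a time, 0 to 1 members were called in normal lung against NMG, 1 to 2 in lung metastasis against carcinoma and 0 to 1 for the site difference. Against PT, miR-10a ran from -0.052 to 0.71 and miR-196b from -0.12 to 0.52. Against carcinoma, miR-196b ran from -0.63 to 0.053, against EMT-like areas miR-10a ran from -0.26 to 0.49, and in spheres against monolayer miR-10b ran from -1.43 to 1.51. The causes were not tested.

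Background limits what low values show. Not above the detection limit were miR-196a in every metastasis, miR-10b in every metastasis but replicate 4, and all members but miR-10b in cultures. miR-10b was above it in 3 of 4 cultures. The size of differences that rest on values not above the limit depends on the pseudocount.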
